A study of Mus musculus with 22 samples.

Results

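Of 6357 peaks of MTF2 in wild-type mouse embryonic stem cells, 723 lay on an exon of a protein-coding gene and away from every protein-coding promoter. These exonic peaks were chosen by position alone. Each overlapped an exon by at least 1 bp and touched no window of 1 kb on either side of a protein-coding transcription start site (TSS), by the basic transcripts that GENCODE M21 gives for GRCm38/mm10. The remaining peaks were 3960 promoter peaks, which touched such a window, 527 intronic peaks and 1147 intergenic peaks. Peaks of EZH2, H3K27me3 and H3K4me3 were compared between wild-type E14 cells, an established embryonic stem cell line, and cells labelled Mtf2 GT/GT, in which a gene trapping cassette disrupts the Mtf2 coding sequence. All cells were grown in serum with LIF. The series has 22 libraries in 12 groups, and the 7 lists used here stand for 14 of them, 2 for each list. The labels leave the parental line of the gene-trap cells unnamed and do not say how many clones were used. Genotype and cell line therefore cannot be told apart.

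MTF2 is a Polycomb-like protein, a partner of Polycomb repressive complex 2 (PRC2) that binds unmethylated CpG-rich DNA. EZH2 is the catalytic subunit of PRC2 and writes H3K27me3, a mark of repressed developmental genes. H3K4me3 is written by other enzymes at CpG islands and active or poised promoters, and both marks together are called bivalent chromatin. CpG islands lie mostly at promoters, but some lie within genes, in exons as well as introns.

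The deposited lists hold the start and end of each region and no height, so every value here is an overlap, a width or a position. There is 1 list per group, so no spread between replicates could be measured and no test was made. The depth of the libraries is unknown. Percentages carry exact Clopper-Pearson 95% intervals, which cover counting error over regions only. The wild-type lists held 7213 EZH2, 6294 H3K27me3 and 27418 H3K4me3 regions, against 840, 963 and 26960 in the gene-trap lists. The promoters of all 10 stem cell genes checked, among them Pou5f1 and Nanog, overlapped H3K4me3 in both genotypes. The promoter of Mtf2 itself also overlapped H3K4me3 in both, which checks nothing about the MTF2 protein. The absence of MTF2 from gene-trap cells was not checked here.

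Exonic peaks ranged from sequence crowded with GCG, the trinucleotide counted here on both strands (GCG or CGC), to sequence almost without it. The windows below are the central 300 bp of 5 exonic peaks, read from the plus strand of GRCm38. Capitals mark every base within a GCG or a CGC. The first pair, in coding exons of Exoc3l2 (exon 3 of 12) and Snx20 (exon 4 of 4), held the most GCG among the 422 peaks that could be shown. The Foxl2 window, beside the exon of that gene, held the fewest and contained no coding base. The Zfp503 window, wholly coding, belongs to the widest of the showable peaks that overlapped EZH2 in gene-trap cells and had not been taken for another reason. The Msx2 window, with no coding base, belongs to the widest without wild-type H3K4me3.
Exoc3l2, chr7:19474056-19474355: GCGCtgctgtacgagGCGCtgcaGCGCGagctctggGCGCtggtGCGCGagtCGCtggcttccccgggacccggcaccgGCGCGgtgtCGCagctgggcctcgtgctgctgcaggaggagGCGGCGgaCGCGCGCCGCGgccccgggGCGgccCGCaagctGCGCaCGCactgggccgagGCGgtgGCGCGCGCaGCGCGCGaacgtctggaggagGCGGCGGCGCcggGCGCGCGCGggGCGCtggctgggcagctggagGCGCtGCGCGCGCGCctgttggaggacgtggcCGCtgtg
Snx20, chr8:88627314-88627613: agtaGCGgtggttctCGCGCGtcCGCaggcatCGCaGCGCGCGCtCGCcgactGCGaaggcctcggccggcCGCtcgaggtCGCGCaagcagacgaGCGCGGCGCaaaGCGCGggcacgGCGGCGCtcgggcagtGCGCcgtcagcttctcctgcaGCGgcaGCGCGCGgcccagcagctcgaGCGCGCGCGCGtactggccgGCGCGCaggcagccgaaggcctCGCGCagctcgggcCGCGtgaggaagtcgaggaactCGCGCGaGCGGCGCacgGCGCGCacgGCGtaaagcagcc
Foxl2, chr9:98958622-98958921: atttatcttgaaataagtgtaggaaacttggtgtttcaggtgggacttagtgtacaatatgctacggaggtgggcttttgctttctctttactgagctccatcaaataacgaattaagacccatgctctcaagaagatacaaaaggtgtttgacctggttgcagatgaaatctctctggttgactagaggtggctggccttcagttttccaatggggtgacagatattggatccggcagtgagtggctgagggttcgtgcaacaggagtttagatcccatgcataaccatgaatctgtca
Zfp503, chr14:21985071-21985370: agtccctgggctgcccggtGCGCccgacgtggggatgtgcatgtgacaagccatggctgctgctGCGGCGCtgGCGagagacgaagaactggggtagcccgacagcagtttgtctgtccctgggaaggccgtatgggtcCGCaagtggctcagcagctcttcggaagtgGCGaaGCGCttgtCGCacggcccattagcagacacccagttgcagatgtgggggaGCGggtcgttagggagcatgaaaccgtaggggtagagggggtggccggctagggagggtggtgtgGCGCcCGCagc
Msx2, chr13:53465362-53465661: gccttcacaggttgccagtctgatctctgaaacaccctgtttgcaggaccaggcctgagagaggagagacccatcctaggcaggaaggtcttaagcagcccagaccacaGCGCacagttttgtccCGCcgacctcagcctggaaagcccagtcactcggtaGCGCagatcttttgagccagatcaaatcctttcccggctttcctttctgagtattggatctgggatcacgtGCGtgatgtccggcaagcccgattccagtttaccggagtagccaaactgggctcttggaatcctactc

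The Exoc3l2 window held 51 GCG and 53 CpG, and the Snx20 window 48 GCG and 60 CpG. The Foxl2 window held 0 GCG and 4 CpG. The Zfp503 and Msx2 windows lay between, with 15 and 6 GCG. In the whole class 720 of 723 peaks (99.6%) had a GCG in the central 300 bp, with a median count of 15, beside 98.9% of all MTF2 peaks and a median of 16. The Zfp503 window is thus typical of the class in GCG. The matches describe the letters only.

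The 3 peaks at the ends of this range also differed in their marks. The peak of Exoc3l2, a relative of exocyst subunits, and that of Snx20, a sorting nexin, were covered over their whole widths of 766 and 1003 bp by EZH2, H3K27me3 and H3K4me3 in wild-type cells. In gene-trap cells both peaks overlapped no EZH2 and no H3K27me3, and H3K4me3 still covered every base. The 461 bp peak of Foxl2, a forkhead factor of ovary and eyelid, was covered by EZH2 and H3K27me3 in wild-type cells and overlapped no H3K4me3 in either genotype. In gene-trap cells H3K27me3 covered all 461 bp of it.

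In wild-type cells nearly all exonic peaks carried PRC2 and its mark. EZH2 overlapped 672 of 723 (92.9%, 90.8 to 94.7), beside 93.7% of all MTF2 peaks. H3K27me3 overlapped 710 (98.2%, 96.9 to 99.0), beside 95.4% of all. H3K4me3 overlapped 645 (89.2%, 86.7 to 91.4), which is also the share over all MTF2 peaks, 89.2%. That equality hides a difference between classes: H3K4me3 lay over 97.1% of promoter peaks, 72.1% of intronic and 69.5% of intergenic peaks, so exonic peaks fell between promoters and the other distal classes. All 3 together lay over 595 exonic peaks (82.3%, beside 81.4% of all MTF2 peaks). EZH2 and H3K27me3 without H3K4me3 lay over 69 (9.54%, beside 9.25%). H3K4me3 with neither of the other 2 lay over 5 (0.692%, beside 1.32%). No exonic peak lacked all 3, beside 0.220% of all MTF2 peaks.

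In gene-trap cells EZH2 was called at few exonic peaks and H3K27me3 at more. EZH2 overlapped 36 of 723 (4.98%, 3.51 to 6.83), beside 5.63% of all MTF2 peaks. That share depended on the definitions: it was 2.45% of the 530 peaks with at least 50% of their bases in exons, and 1.11% when only EZH2 regions of at least 500 bp were counted. It was 0.415% when EZH2 had to cover at least 50% of the peak. H3K27me3 overlapped 183 (25.3%, 22.2 to 28.6), beside 22.1% of all, 16.7% of promoter, 34.0% of intronic and 33.2% of intergenic peaks. H3K4me3 overlapped 667 (92.3%, 90.1 to 94.1), beside 91.9% of all. Read against the wild-type calls, 36 of the 672 exonic peaks with EZH2 had it in gene-trap cells too (5.36%, against 6.01% of all such MTF2 peaks). For H3K27me3 it was 183 of 710 (25.8%, against 23.2%), and for H3K4me3 636 of 645 (98.6%, against 98.8%). The exonic shares of EZH2 and of H3K4me3 therefore lay close to those of all MTF2 peaks, and the H3K27me3 share lay above that of promoter peaks and below those of intronic and intergenic peaks.

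**Figure D1:**
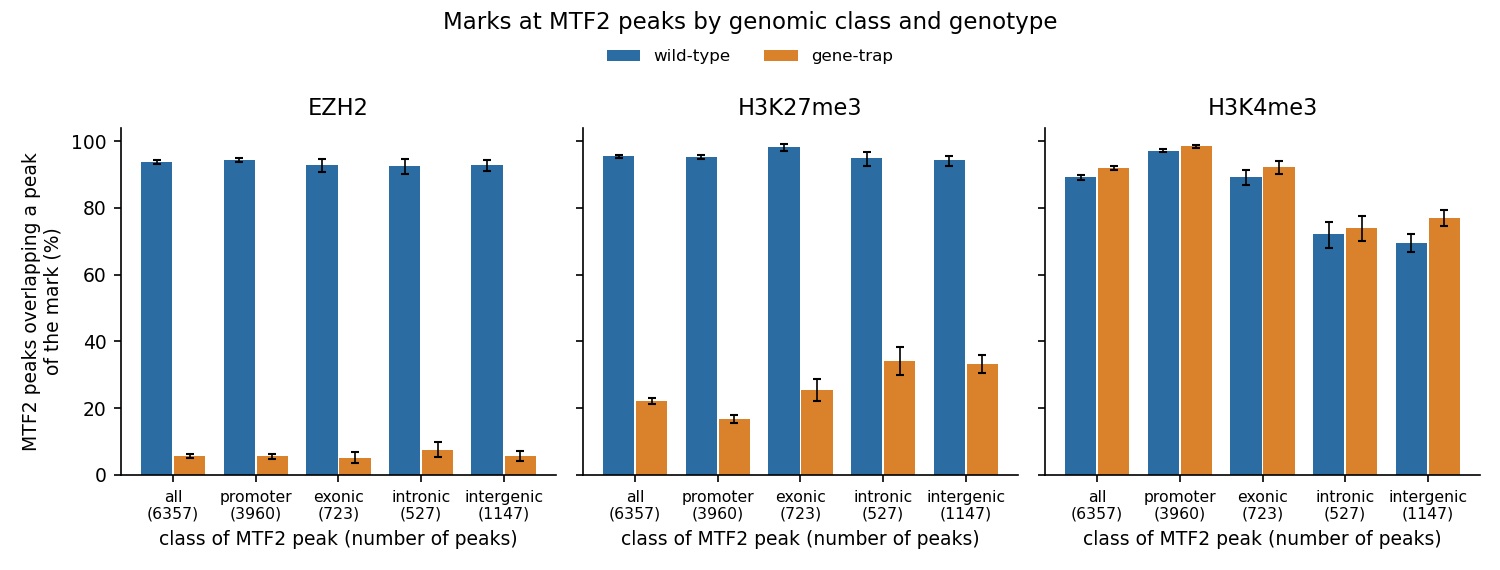
Share of MTF2 peaks, in percent, that overlap a peak of EZH2, H3K27me3 or H3K4me3 by at least 1 bp, for all MTF2 peaks and for each class, in wild-type (blue) and gene-trap (orange) cells. Error bars are exact 95% intervals over regions, and each bar comes from 1 list. Among exonic peaks EZH2 is at 92.9% and 4.98%, H3K27me3 at 98.2% and 25.3% and H3K4me3 at 89.2% and 92.3%.

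Covered length gave the same picture. EZH2 covered 94.6% of the bases under exonic peaks in wild-type cells and 2.51% in gene-trap cells, H3K27me3 99.2% and 36.0%, and H3K4me3 77.9% and 83.2%. At single peaks H3K27me3 covered fewer bases in gene-trap cells at 590, the same at 133 and more at none. The 133 include 13 peaks with H3K27me3 in neither genotype. EZH2 covered fewer at 671 and more at 1. H3K4me3 moved both ways, with more bases at 203 peaks, fewer at 119 and the same number at 401. The 401 include 47 peaks with H3K4me3 in neither genotype. The H3K4me3 regions themselves had a median width of 1513 bp over exonic peaks in wild-type and 1482 bp in gene-trap cells, beside 1915 and 1936 bp over promoter peaks.

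The combinations of marks differed between the genotypes. H3K4me3 alone lay over 525 exonic peaks in gene-trap cells (72.6%), beside 74.8% of all MTF2 peaks. In wild-type cells it lay alone over 5 (0.692%), beside 1.32% of all. In gene-trap cells H3K27me3 with H3K4me3 but no EZH2 lay over 110 (15.2%, beside 11.9% of all MTF2 peaks). H3K27me3 alone lay over 38 (5.26%, beside 4.86%), all 3 over 32 (4.43%, beside 5.02%), and none of the 3 over 14 (1.94%, beside 2.88%). Those 14 peaks included 2 on Tbx5, a T-box factor of heart and forelimb, and 1 on the last exon of Egr2, a zinc finger factor of the hindbrain.

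The 723 peaks fell on 593 host genes, of 21951 protein-coding genes in the annotation. Each peak was given to the gene with the most exon bases under it. Most hosts, 491, had 1 exonic peak and 102 had 2 or more. Only 10 peaks had exons of more than 1 gene under them. The TSS nearest to the peak was that of the host for 549 peaks (75.9%) and that of another gene for 174. The promoter of the host also had an MTF2 peak for 456 exonic peaks (63.1%, 59.4 to 66.6).

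Peaks lay on internal and last exons in nearly equal numbers. In the host transcript with the longest coding sequence, 343 peaks were on an internal exon (47.4%, 43.7 to 51.2), 335 on the last exon (46.3%), 25 on a single-exon gene (3.46%) and 20 on a first exon (2.77%). Of the protein-coding exon bases outside promoter windows, internal exons held 44.5%, last exons 52.9%, single exons 2.04% and first exons 0.627%. First exons are few because the rule removes all but those that run more than 1 kb from their TSS. Among internal exons, 101 peaks were on exon 2, 58 on exon 3, 47 on exon 4 and 29 on exon 5. The near balance of internal and last exons depended on the definitions. They held 38.3% and 53.6% of the 530 peaks with at least 50% of their bases in exons.

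Coding sequence was the usual ground. Of the exon bases under the peaks, counted in the host transcript, 78.0% were coding, 19.6% in 3′ UTRs and 2.36% in 5′ UTRs. The same parts make up 55.4%, 43.7% and 0.887% of exon bases outside promoter windows. Most of the exon bases were coding at 603 peaks, in the 3′ UTR at 101 and in the 5′ UTR at 19. The median peak was 752 bp wide and had 80.6% of its bases in exons, and 221 peaks lay wholly within them. For comparison, the median width was 1014 bp for promoter, 582 bp for intronic and 640 bp for intergenic peaks. At the edge of the rule were 13 peaks with under 50 exon bases, the least being 2 bp at Foxl2. The exonic peak nearest to a TSS, on Hoxd4, was 1018 bp away, and the farthest promoter peak, at Mfap3l, 997 bp.

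CpG density placed exonic peaks between promoters and the other distal classes. The central 1 kb held a median of 5.40 CpG per 100 bp (quartiles 4.00 and 7.30), beside 6.90 in promoter, 4.00 in intronic and 4.10 in intergenic peaks. GCG followed the same order, at 3.60, 4.80, 2.40 and 2.60 per 100 bp.

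The peaks with and without wild-type H3K4me3 differed in CpG density and in domain width. The 645 exonic peaks with it had a median of 5.70 CpG per 100 bp and an H3K27me3 domain of 4868 bp, and the 78 without it 2.85 CpG and 17949 bp. Their median distances to a TSS were 5355 and 4020 bp. An H3K4me3 region that also reached the host promoter lay over 83 peaks (11.5%). At the others with H3K4me3, the region over the peak did not extend to the host promoter. A noncoding TSS of the basic set lay within 1 kb of 58 peaks (8.02%). At those peaks H3K4me3 was found at 87.9%, against 89.3% of the 665 without one. When every TSS of the full annotation set a window, 498 exonic peaks remained, and the shares of all 3 marks in both genotypes stayed within the intervals given for the 723.

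Gene-trap H3K27me3 was less frequent at peaks far from a TSS. The nearest protein-coding TSS was at a median of 5235 bp (quartiles 2597 and 12644). In gene-trap cells H3K27me3 overlapped 33.5% of the 176 peaks at 1 to 2.5 kb, 34.5% of the 174 at 2.5 to 5 kb, 26.6% of the 158 at 5 to 10 kb and 10.2% (6.52 to 15.1) of the 215 beyond 10 kb. Wild-type H3K27me3 was at 99.4%, 99.4%, 97.5% and 96.7% of the same groups, so the gradient was in the gene-trap list. Low counts beyond 10 kb were seen both on internal exons (12 of 110) and on last exons (10 of 105). H3K4me3 showed no such gradient, at 88.6%, 85.6%, 85.4% and 95.3% in wild-type cells.

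Internal and last exons, which hold most of the peaks, differed less than the distance groups. Gene-trap H3K27me3 overlapped 21.9% (17.6 to 26.6) of internal and 28.7% (23.9 to 33.8) of last-exon peaks, and EZH2 2.92% and 7.46%. On the 25 single-exon peaks H3K27me3 overlapped 10 (interval 21.1 to 61.3%) and on the 20 first-exon peaks 2 (1.23 to 31.7%). The part of the exon separated the peaks further. Gene-trap H3K27me3 overlapped 61 of the 101 peaks mostly in 3′ UTRs (60.4%, 50.2 to 70.0), against 115 of 603 in coding sequence (19.1%, 16.0 to 22.4). Wild-type H3K4me3 went the other way, at 68.3% and 92.7%. Peaks in 3′ UTRs had a median width of 1067 bp and 4.20 CpG per 100 bp, those in coding sequence 731 bp and 5.60. An MTF2 peak at the host promoter accompanied 90.1% and 58.7% of them. Width, CpG density and host promoter thus move with the part of the exon, and their share in the difference was not tested.

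**Figure D2:**
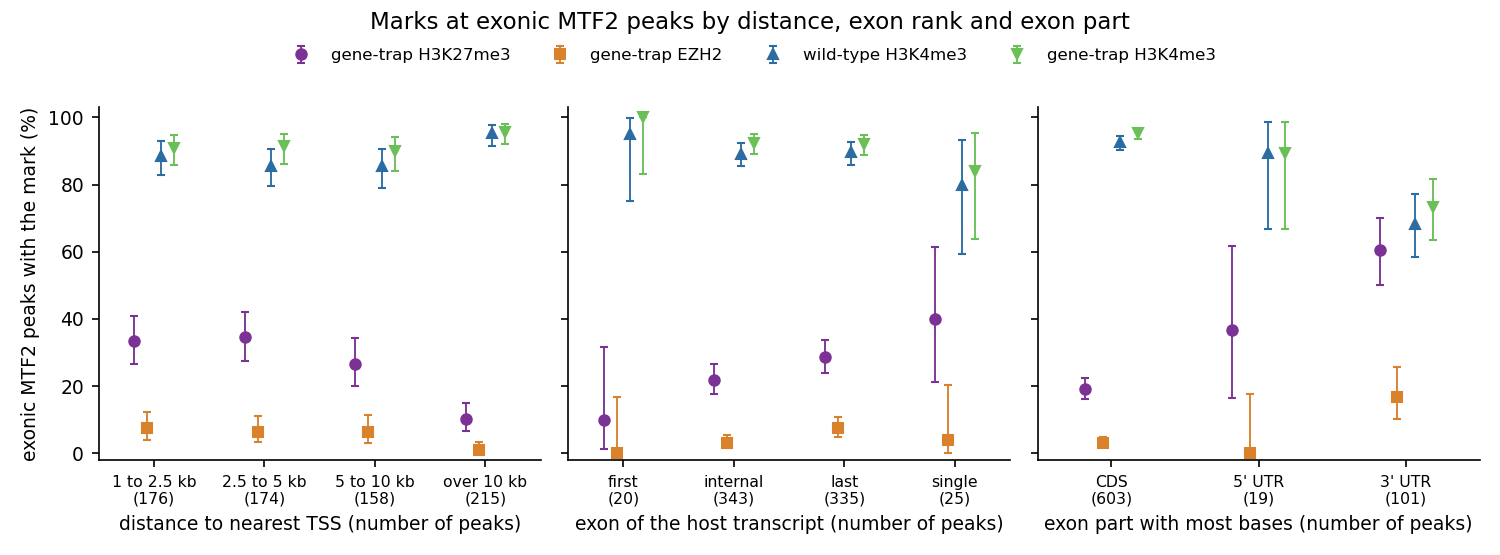
Share of exonic MTF2 peaks, in percent, with gene-trap H3K27me3, gene-trap EZH2, wild-type H3K4me3 and gene-trap H3K4me3, by distance to the nearest protein-coding TSS, by exon of the host transcript and by the exon part with most bases. Bars are exact 95% intervals over regions. Gene-trap H3K27me3 is at 33.5% within 2.5 kb and 10.2% beyond 10 kb, and at 60.4% of peaks in 3′ UTRs.

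Gene-trap H3K27me3 also varied with the width of the wild-type H3K27me3 domain. The 710 exonic peaks with the mark lay in domains of 5318 bp at the median (quartiles 3384 and 11768), up to 133253 bp around Hoxb3 and Hoxb7. Split into 4 groups by domain width, gene-trap H3K27me3 overlapped 5 of 178 peaks in the narrowest group (2.81%), 12 of 177 (6.78%), 41 of 177 (23.2%) and 125 of 178 in the widest (70.2%, 62.9 to 76.8). Promoter peaks in the same ranges of domain width had 0.774%, 4.79%, 20.7% and 78.5% (74.4 to 82.3). Intergenic peaks had 0.926%, 1.72%, 19.0% and 70.1%. Intronic peaks had 1.23%, 4.40%, 21.2% and 74.5%. The exonic share was above that of promoter peaks in the 3 narrower ranges and below it in the widest. The exonic and promoter intervals overlapped in every range, and these differences were not tested.

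Wild-type H3K4me3 went the other way along the same ranges. It overlapped 96.6%, 99.4% and 95.5% of exonic peaks in the 3 narrower groups and 65.2% (57.7 to 72.1) in the widest, where promoter peaks had 88.8% and intergenic peaks 50.1%. The median CpG density was 4.15 per 100 bp in the widest group and 5.50 to 6.10 in the others.

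**Figure D3:**
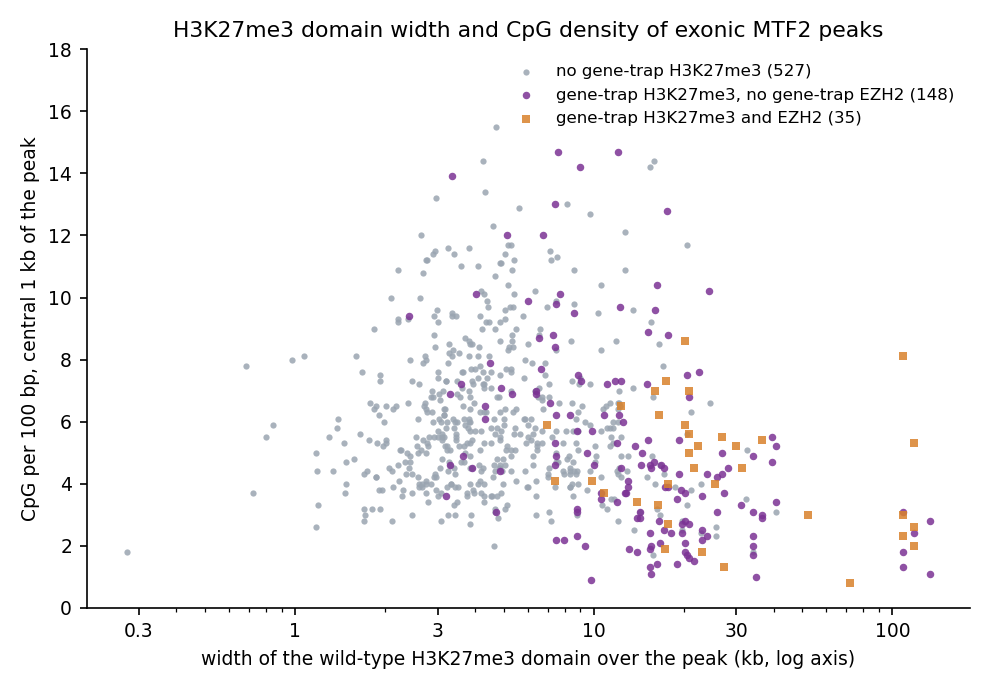
Each point is 1 of the 710 exonic MTF2 peaks with wild-type H3K27me3, by the width of that domain (x axis, kb, log scale) and the CpG count per 100 bp in its central 1 kb (y axis). Grey points had no gene-trap H3K27me3 (527), purple points had it without EZH2 (148) and orange squares had both (35). Purple and orange points crowd at wide domains, with a median of 15862 bp for the 183 together.

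Most of the gene-trap H3K27me3 was in domains that reached the host promoter. For 332 exonic peaks (45.9%, 42.2 to 49.6) the same H3K27me3 region also touched the host promoter, and 145 of these (43.7%, 38.3 to 49.2) had the mark in gene-trap cells. For the 378 whose domain did not reach it, 38 had it (10.1%, 7.21 to 13.5). The median domains were 11078 and 3843 bp wide. The call at the peak often matched that at the promoter: gene-trap H3K27me3 lay over 142 of the 206 peaks whose host promoter had it (68.9%) and over 41 of the 517 whose host promoter lacked it (7.93%). Beyond 10 kb from a TSS the shared wild-type domain was found for 3 of 215 peaks. In 105 of the 142 cases with gene-trap H3K27me3 at both places, 1 gene-trap region joined peak and promoter. The match there is 1 region counted at both places. Of the 102 hosts with several exonic peaks, 30 had the mark at every one, 58 at none and 14 at some.

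Some exonic peaks lay close to promoter binding. A promoter MTF2 peak lay within 1 kb of 113 exonic peaks, and 74 of these (65.5%, 56.0 to 74.2) had gene-trap H3K27me3 and 78 (69.0%) wild-type H3K4me3. The other 610 had 17.9% (14.9 to 21.1) and 93.0%. EZH2 in gene-trap cells was at 14.2% and 3.28%. The nearest other MTF2 peak of any class was at a median of 4978 bp, and within 1 kb for 251 exonic peaks. CpG density also differed, with medians of 3.90 and 5.65 per 100 bp, and its part in these shares was not tested.

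Gene-trap H3K27me3 did not rise steadily with peak width. All MTF2 peaks were split into 5 width classes, and exonic peaks had the mark at 15.2%, 9.21%, 19.2%, 29.7% and 68.6% from the narrowest to the widest. Of the 102 exonic peaks in the widest (from 1778 bp), 70 had gene-trap H3K27me3 and 25 gene-trap EZH2 (24.5%). In the narrowest (up to 387 bp) it was 25 of 165 and 1. Intronic peaks had H3K27me3 at 67 of 181, 30 of 120, 18 of 98, 17 of 55 and 47 of 73 in the same order, and promoter peaks at 3.36% in the narrowest and 48.4% in the widest class.

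The 10 widest exonic peaks lay in wild-type H3K27me3 domains of 11078 to 118123 bp, and all 10 overlapped H3K27me3 in gene-trap cells. The widest, 6761 bp at chr7:70345243-70352003, touched the end of the last exon of Nr2f2, a nuclear receptor of veins and forebrain, with only 60 bp in the exon. H3K27me3 covered 6761 bp of it in wild-type and 5804 bp in gene-trap cells. EZH2 covered 6761 and 490 bp, and H3K4me3 1770 and 2136 bp. Most of that peak lay beyond the 3′ end of the transcript, and a noncoding TSS lay within 1 kb.

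Zfp503, a zinc finger repressor of forebrain and limb, had the next widest, 6642 bp at chr14:21981900-21988541 over its last exon, with 3639 bp in exons. EZH2 covered 1013 bp of it in gene-trap cells in 3 separate regions, and H3K27me3 5310 bp. At Dlx1, a homeobox factor of forebrain interneurons, a 5836 bp peak over exon 3 of 3 had 5720 bp of H3K27me3 and 642 bp of EZH2 in gene-trap cells. At Sp9, a zinc finger factor of striatal neurons, these were 3596 and 161 bp of 4805. In wild-type cells EZH2 and H3K27me3 covered these peaks over all or nearly all of their width.

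PRC1 genes were hosts themselves. Cbx8, a chromodomain subunit of PRC1, had a 5291 bp peak over its last exon at chr11:119034248-119039538. H3K27me3 covered all 5291 bp in both genotypes, and EZH2 covered 5291 bp in wild-type and 2075 bp in gene-trap cells. Bmi1, a PRC1 ring-finger subunit, had a 1133 bp peak that touched its last exon by 39 bp and lay under H3K27me3 over all 1133 bp in both genotypes, with no H3K4me3 in either. Both genes came from a list of 34 Polycomb component genes, of which 11 had an MTF2 promoter peak.

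Hoxa3, an anterior Hox gene, had a 4541 bp peak over its last exon, in a domain of 118123 bp. H3K27me3 covered 4541 bp in both genotypes and EZH2 1416 bp in gene-trap cells. Hlx, a homeobox factor of gut and liver, had 4340 bp under H3K27me3 in both genotypes. Nrn1, which codes for the neurite factor neuritin, had 4249 bp in both. Pcdh17, a protocadherin of neuronal circuits, had a 3984 bp peak in its long first exon, 1373 bp from the TSS, and in gene-trap cells 3885 bp of H3K27me3 and no EZH2.

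**Figure D4:**
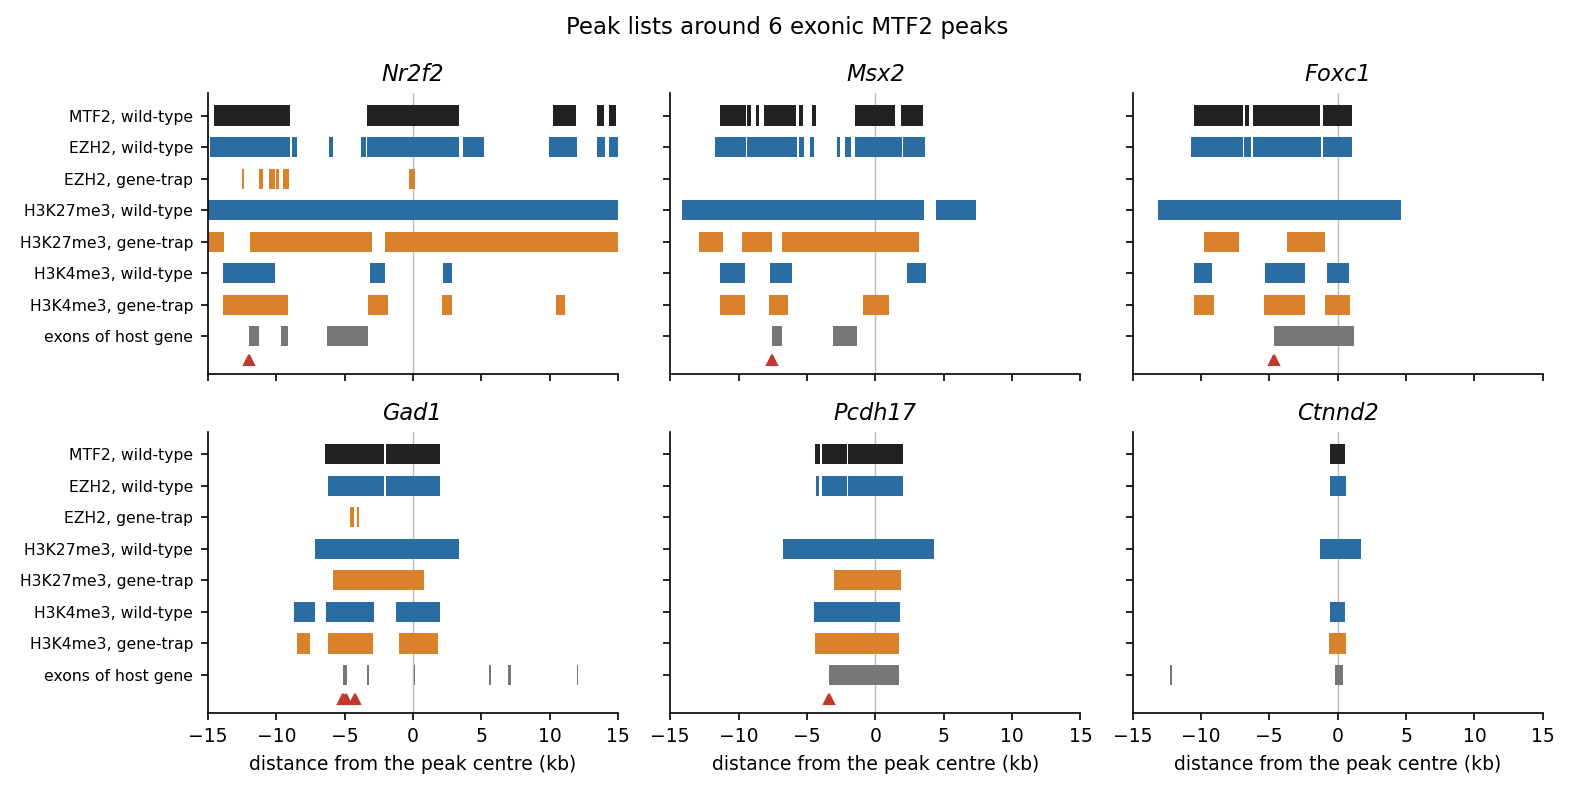
Regions of the 7 peak lists within 15 kb of the centre of 6 exonic MTF2 peaks, along the direction of transcription, with the exons of the host transcript (grey) and the TSSs of the gene (red triangles); the x axis is the distance from the peak centre in kb. Blue is wild-type, orange gene-trap, black MTF2. Gene-trap H3K27me3 covers most of the Nr2f2 peak, 88 bp of the Foxc1 peak and none of the Ctnnd2 peak, whose TSS lies 473319 bp away.

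Gene families differed in how many of their exonic peaks had H3K27me3 in gene-trap cells. The host genes were matched to 11 lists of symbols. Of 593 hosts, 229 were in a list (38.6%), beside 9.25% of all protein-coding genes, 25.2% of the genes with an MTF2 promoter peak and 39.2% of the hosts of intronic peaks. Peaks on listed hosts had gene-trap H3K27me3 in 132 of 294 cases (44.9%, 39.1 to 50.8) and those on other hosts in 51 of 429 (11.9%, 8.98 to 15.3). For gene-trap EZH2 it was 31 and 5.

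Hox genes, which set position along the body axis, had 15 exonic peaks on 11 of their 41 members. All 15 had H3K27me3 in gene-trap cells over their whole width, and 7 had EZH2. Their domains ran from 10019 bp at Hoxc13 to 133253 bp. Many of the 15 shared a domain, such as the Hoxc9 and Hoxc12 peaks in 1 of 108818 bp, so they are not separate observations. Wild-type H3K4me3 was at 8 of the 15. Hoxc9 alone had 4 peaks on exons 2 and 3, of 331 to 1609 bp, and EZH2 in gene-trap cells covered 652 bp of the second widest and 273 bp of the third. Hoxd3 had 3290 bp of H3K27me3 over its last exon in both genotypes, and 635 bp of EZH2 in gene-trap cells. No Hox peak differed in its H3K4me3 call between the genotypes.

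Other homeobox genes had 39 of 67 peaks under gene-trap H3K27me3 (58.2%, 45.5 to 70.2) and 12 under EZH2. That list, matched by symbol, also took in Pax9, which has no homeobox. Forkhead, T-box, GATA and Sox genes had 14 of 20 (70.0%), but EZH2 at none (interval over regions up to 16.8%). Tbx1, a T-box factor of the pharyngeal arches, and Tbr1, one of cortical neurons, showed this at their last exons, where H3K27me3 covered all 3204 and 2602 bp in both genotypes while EZH2 covered them fully in wild-type cells and not at all in gene-trap cells. The list of zinc finger developmental regulators had 26 of 42 (61.9%). It also took in Tfap2b, an AP-2 factor without zinc fingers, whose 4 peaks all had the mark. Signalling genes had 15 of 28 (53.6%). Among the latter, Shh, the hedgehog ligand of the neural tube, had 3697 bp of H3K27me3 over its last exon in both genotypes and no gene-trap EZH2. Its relative Dhh had 2064 bp left of 3072 bp, with 471 bp of EZH2.

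The list of bHLH genes was split, at 5 of 14. Matched by symbol, it also took in Ebf1, of the separate EBF family, with a peak under gene-trap H3K27me3. Sim1, a factor of the hypothalamus, had a 3919 bp peak at the last exon that H3K27me3 covered fully in wild-type cells and overlapped nowhere in gene-trap cells. Hand1, a factor of heart and trophoblast, had 3452 bp in both genotypes.

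Neuronal and matrix genes had lower shares, with intervals that include the 25.3% of all exonic peaks, and near the 11.9% of hosts in no list. Axon guidance and adhesion genes had gene-trap H3K27me3 at 6 of 41 peaks (14.6%, 5.57 to 29.2), channel, transporter and transmitter genes at 4 of 36 (11.1%, 3.11 to 26.1), and matrix genes at 1 of 9 (0.281 to 48.2%). No peak of these 3 lists had EZH2 in gene-trap cells. Wild-type H3K4me3 was at 40 of 41, 36 of 36 and 9 of 9. Gad1, which makes GABA, had a 3933 bp peak around its exon 3 with 2788 bp of gene-trap H3K27me3, and Slc32a1, the vesicular GABA transporter, 1891 of 2876 bp. Cdh23, a cadherin of hair cells, had 1566 of 2507 bp. Hapln2, a link protein of the brain matrix, had 1240 of 2146 bp. Ncan, which codes for the brain proteoglycan neurocan, had 1349 bp under H3K27me3 in wild-type cells and none in gene-trap cells. C2H2 zinc finger genes were near the average of exonic peaks, with 5 of 20 for H3K27me3, and all 20 had H3K4me3 in both genotypes. The last exon of Zfp316 carried 2737 bp of H3K27me3 in both.

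**Figure D5:**
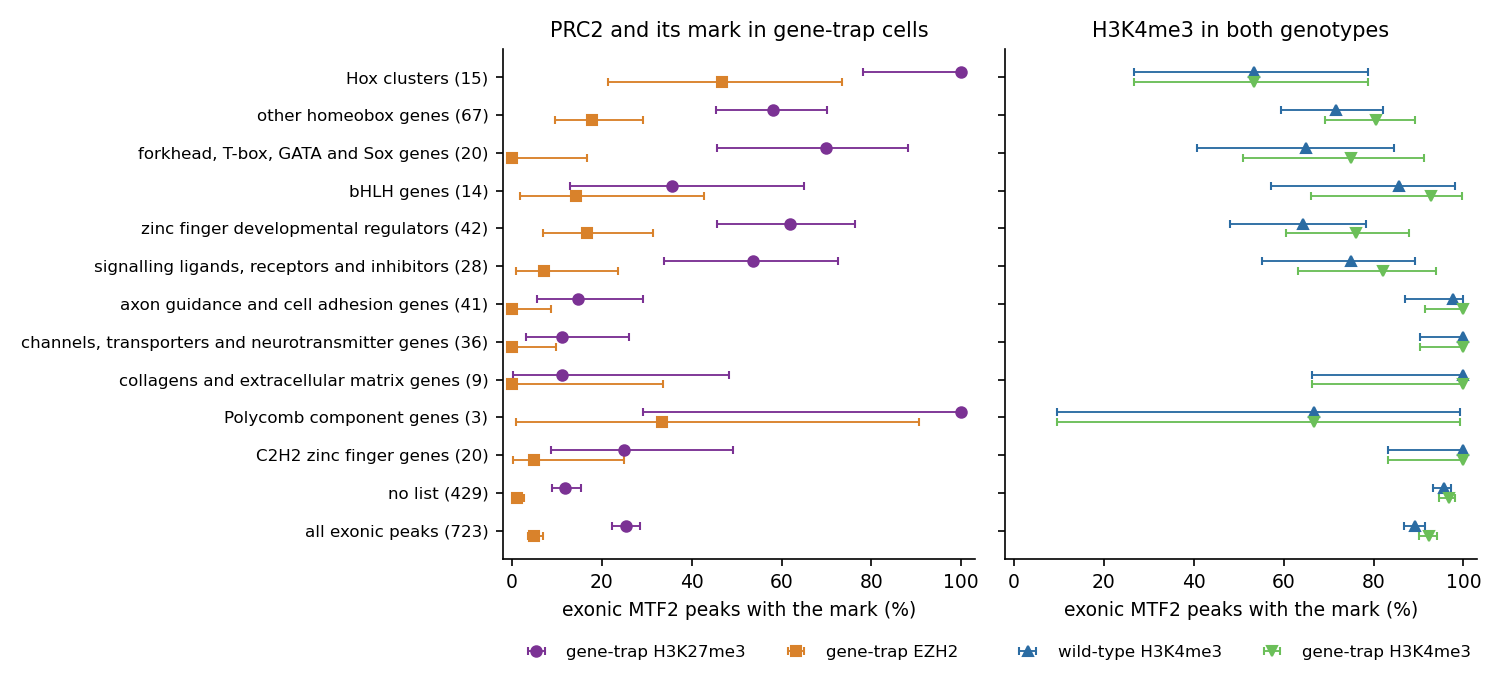
Share of exonic MTF2 peaks on the genes of each list, in percent, with gene-trap H3K27me3 and EZH2 (left) and with H3K4me3 in both genotypes (right). The number of peaks is in parentheses, and bars are exact 95% intervals over regions. The intervals count peaks that share an H3K27me3 domain as separate regions. Hox peaks are at 100% for gene-trap H3K27me3, peaks on genes in no list at 11.9%.

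List membership and domain reach moved together. Listed hosts had their exonic peak in a domain that reached the promoter in 196 of 294 cases, other hosts in 136 of 429. Within domains that reached the promoter, gene-trap H3K27me3 was at 58.7% of peaks on listed hosts and 22.1% on others. In domains that did not, it was at 17.7% and 7.45%.

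The 36 peaks with EZH2 in gene-trap cells were wider and less CpG-dense than the other exonic peaks. They lay on 31 genes, had a median width of 2216 bp against 731 bp for the others, a median domain of 20865 bp against 5024 bp, and 4.30 CpG per 100 bp against 5.50. The lists held 55 gene-trap EZH2 regions over them, which covered a median of 15.4% of the peak. Of the 36, 35 had H3K27me3 as well. The other, 364 bp wholly within the last exon of Lars2, a mitochondrial leucyl-tRNA synthetase, overlapped neither histone mark in either genotype, and EZH2 covered 184 bp in wild-type and 279 bp in gene-trap cells. It was the single exonic peak with more EZH2 bases in gene-trap cells. The 5 hosts outside the lists were Nrn1, Scarf2, Urad, 5730596B20Rik and Lars2, and 5730596B20Rik lay in the same domain of 118123 bp as Hoxa3. Beyond 10 kb from a TSS, Lars2 and Tfap2b, a factor of neural crest and kidney, were the only hosts with gene-trap EZH2 among 215 peaks, a remark made after their values were seen.

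H3K27me3 without EZH2 was found at 148 exonic peaks in gene-trap cells. Together with H3K4me3 it lay over 15.2% of exonic peaks, beside 11.9% of all MTF2 peaks and 10.2% of intronic peaks. Without H3K4me3 it lay over 5.26%, beside 4.86% and 17.5%. Among the widest of the 148, beside Pcdh17 and Gad1, were the peaks on Irx1 and Irx4, Iroquois homeobox genes of nervous system and heart. Irx1 had 3194 bp of H3K27me3 over a 3926 bp peak and Irx4 3143 of 3782 bp. In wild-type cells both were covered by EZH2 from end to end.

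A small group of exonic peaks lacked H3K4me3 in wild-type cells. The 5 widest were on Msx2, Mnx1, Pax3, Cdkn2a and Osr1, from 2942 to 2228 bp, and all had H3K27me3 over every base in both genotypes. Msx2 patterns the skull, Mnx1 specifies motor neurons, Pax3 acts in neural crest and muscle, Cdkn2a codes for cell cycle inhibitors and Osr1 acts in kidney. In gene-trap cells H3K4me3 covered 1883 bp at Msx2, 1725 bp at Mnx1, 2132 bp at Cdkn2a and 1657 bp at Osr1, and 0 at Pax3. Gata3, a GATA factor of T cells and ear, went from 0 to 1629 bp of 2108.

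In all, 31 exonic peaks had H3K4me3 in gene-trap cells alone and 9 in wild-type cells alone, beside 240 and 69 of all MTF2 peaks. Of the 78 exonic peaks without wild-type H3K4me3, 54 had gene-trap H3K27me3, and 15 of those 54 had gene-trap H3K4me3. Of the 24 without gene-trap H3K27me3, 16 had gene-trap H3K4me3. The 5 widest with H3K4me3 in wild-type cells alone were on Osr2, Ehd2, Cyp46a1, Hs3st3a1 and Dll1. Osr2, a relative of Osr1 active in palate, went from 1067 bp to 0, with H3K27me3 over all 1067 bp in both genotypes. Cyp46a1, the cholesterol 24-hydroxylase of brain, went from 508 to 0 bp and had no mark in gene-trap cells. At Dll1, a Notch ligand, 320 bp went to 0.

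Exonic peaks without EZH2 or without H3K27me3 in wild-type cells were few, and those without EZH2 were mostly narrow. Of the 51 without EZH2, the 5 widest on hosts other than predicted genes were on Xrra1 (584 bp), Tfap2b (563 bp), Mtss1l (546 bp), Kcnj14 (464 bp) and Vstm2l (442 bp), and each had H3K27me3. In the narrowest width class EZH2 overlapped 75.2% of exonic peaks, and in the 2 widest classes all. The 13 without H3K27me3 included peaks on Mzf1, a myeloid zinc finger factor (1173 bp in its last exon, H3K4me3 over all of it in both genotypes), Zfp334, Basp1, a growth-cone protein, Casz1 and Il17d, a cytokine. EZH2 covered between 278 and 1072 bp of these 5, and none had EZH2 in gene-trap cells.

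The hosts farthest from a TSS, Ctnnd2, Zfhx3 and Magi1, had peaks with H3K4me3 in both genotypes and neither EZH2 nor H3K27me3 in gene-trap cells. The farthest, 473319 bp from a protein-coding TSS, was 1123 bp around exon 7 of 23 of Ctnnd2, which codes for delta-catenin of synapses, at chr15:30646370-30647492. EZH2, H3K27me3 and H3K4me3 each covered 1123 bp in wild-type cells, and 0, 0 and 1123 bp were covered in gene-trap cells. Zfhx3, a large homeobox and zinc finger factor, had the most exonic peaks, 5, between 9424 and 241478 bp from a TSS. All 5 had the 3 marks in wild-type cells and H3K4me3 alone in gene-trap cells. Ttbk1, a tau kinase of brain, showed the same at each of its 4 peaks. Pax6, the eye and forebrain regulator, also had 4, on exons 3, 4, 6 and 7, all within 1 domain of 34228 bp, and H3K27me3 covered all 4 in both genotypes, with H3K4me3 at 1.

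On single-exon and first-exon hosts the peaks lay within 1 long exon or beside it. Foxc1, a forkhead factor of eye and vessels, had 2090 bp of H3K27me3 over its peak in wild-type and 88 bp in gene-trap cells. Sox11, a factor of neural precursors, had 1587 bp and 0, and Pnmal2 1189 bp and 0, while H3K4me3 covered both peaks fully in both genotypes. Pcdhgb5, from the clustered protocadherins, had its 1042 bp peak wholly in a coding first exon, with all 3 marks over 1042 bp in wild-type cells and H3K4me3 alone in gene-trap cells. St8sia3, a brain sialyltransferase, had H3K27me3 over 1923 bp and 0.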

How the data were processed

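Peaks of MTF2, EZH2, H3K27me3 and H3K4me3 from chromatin immunoprecipitation sequencing were used as deposited, 1 list for each of 7 groups. Each deposited list holds chromosome, start and end and no score, and starts were converted from 0-based to 1-based. CASAVA, BWA 0.7.10-r789 and MACS2 2.7 are named per the submitters' processing notes, with build mm10. The names of all 7 lists also carry the label MAnorm_unbiased. How that step combined or removed regions of the 2 libraries of a group is not given in the sources used here. The calling threshold is not given either. A region missing from a list may therefore have been left out at that step. An uneven depth or threshold between the genotypes would change every overlap, and depth is unknown.

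A mark was present where it overlapped a peak by at least 1 bp. Exons and TSSs came from GENCODE M21. Each peak was assigned to the gene with the most exon bases under it, then to the coding transcript with the longest coding sequence, then to the exon with the most bases. A domain is the wild-type H3K27me3 region over the peak, the widest where there were several. CpG and GCG (either strand, without overlap between matches of the same letters) were counted in the central 1 kb. Sequences could be shown for 422 peaks: those at least 300 bp wide whose central 300 bp held no annotated UTR, outside chromosome 18 and not on predicted genes, the conditions on width and predicted genes being added afterwards. Genes were named by rule, each once per group and predicted genes passed over: the widest of all peaks, of each gene list, of each mark pattern and of each exon rank, the peaks farthest from a TSS and the genes with the most peaks. Bmi1, Lars2, Scarf2, Urad, 5730596B20Rik, Tbx5, Egr2, Hoxc9's separate peaks and the extremes of distance or domain were singled out after their values were seen. The members, the gene lists and the rules were chosen with earlier results of these data known. Python 3.11.15, NumPy 2.4.6, SciPy 1.17.1, pysam 0.24.0 and matplotlib 3.10.9 were used, and the overlap code was tested on simulated intervals. Alternatives changed the promoter window, the exon overlap, the peak widths and the overlap of marks. Some items that these rules would name are not reported here.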

Additional observations from a re-analysis of the deposited data

How the results depend on the processing

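A value was counted as moved when it left the 95% interval of the reported share, or for CpG the quartiles. With a promoter window of 2.5 kb (547 peaks) the share in a domain that reached the host promoter was 34.9%, and first, last and single exons held 0%, 51.2% and 1.10%. With at least 50% of the peak in exons (530 peaks) that domain share was 39.6%, internal and last exons held 38.3% and 53.6%, the host promoter had MTF2 for 58.7%, and gene-trap EZH2, gene-trap H3K27me3 and wild-type H3K4me3 were at 2.45%, 18.7% and 91.7%. With the peak centre in an exon (576 peaks) the domain share was 40.8%, internal exons held 42.5%, and gene-trap EZH2 and H3K27me3 were at 3.47% and 21.0%. With MTF2 peaks of at least 500 bp (492 peaks) internal and last exons held 43.7% and 50.8% and host promoters had MTF2 for 67.3%. Wild-type EZH2, H3K27me3 and H3K4me3 were then at 99.0%, 99.8% and 91.7%, and gene-trap at 7.11%, 30.9% and 94.9%. Where a mark had to cover at least 50% of the peak, gene-trap EZH2 was at 0.415% and H3K4me3 at 86.4% (wild-type) and 89.6% (gene-trap). With mark regions of at least 500 bp, EZH2 was at 76.2% (wild-type) and 1.11% (gene-trap). The median CpG count per 100 bp was 7.33 in the central 300 bp. Nothing moved with exons of coding transcripts only, with noncoding TSSs of the basic set included (0 of 13 values each), or with the most upstream TSS of the host only (0 of 1). The cause of these moves was not tested beyond the change of peaks or regions counted.

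The alternatives that follow were chosen after seeing the data. With windows around every TSS of the full annotation (498 peaks) internal and last exons held 38.6% and 53.8%. With 1 peak per host gene, the widest (593 peaks), H3K4me3 was at 93.3% (wild-type) and 94.9% (gene-trap). Without the peaks that had a promoter MTF2 peak within 1 kb (610 left), the domain share was 36.4%, first and single exons held 1.48% and 1.97%, host promoters had MTF2 for 56.6%, gene-trap EZH2, H3K27me3 and H3K4me3 were at 3.28%, 17.9% and 95.1%, and wild-type H3K4me3 was at 93.0%. Nothing moved without peaks on exons of 2 or more genes (0 of 13 values). No paired analysis was possible because each list stands for both libraries of its group, and leaving out a replicate was not possible for the same reason.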
